A study of Homo sapiens with 16 samples.

Results

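The comparison described here sets H9 cells that received an siRNA against OCT4 (siOCT4) and were kept at 20% oxygen against H9 cells that received a control siRNA and were kept in hypoxia at 1% oxygen. H9 is a human embryonic stem cell line, grown without feeder cells in mTeSR1 medium. It uses 4 of the 8 cultures of the study, 2 in each group, called siOCT4 20% and control 1% below. The other 4 cultures, siOCT4 cells at 1% oxygen and control cells at 20% oxygen, entered the fit as a source of spread. Each culture has a library of total RNA and a library of RNA from ribosome-nascent chain complexes (RNC), which are messengers caught with ribosomes and growing peptides on them. The value for a gene is its translation ratio, the RNC value over the RNA value, and 15864 of the 28252 genes in the table had a ratio in all 8 cultures and were tested.

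A ratio above 1 means that a gene takes a larger share of the RNC library than of the RNA library. It is not an expression level, and a difference can come from the RNC or from the RNA library, which cannot be told apart here. The siRNA and the oxygen level both differ between the groups, so their effects cannot be told apart either. Nothing in the labels tells if replicate cultures came from separate passages or dishes, so the p-values cover only the spread among these samples, which may be technical. All 9 markers of pluripotent stem cells looked up (POU5F1, SOX2, NANOG, LIN28A, DNMT3B, TDGF1, PODXL, EPCAM and CDH1) had a ratio in all 8 cultures, as did 17 of 26 trophoblast, 17 of 21 endoderm, 9 of 16 mesoderm, 23 of 26 neural and 10 of 14 fibroblast markers. The presence of a ratio shows that reads were found, not at what level.

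OCT4, the product of POU5F1, is a transcription factor that works with SOX2 and NANOG to keep embryonic stem cells pluripotent. Low oxygen stabilises the hypoxia-inducible factors (HIF), which switch on genes of glycolysis, vessel growth and adaptation to low oxygen. Oxygen shortage also slows translation, through inhibition of the kinase complex mTORC1 and through the integrated stress response, in which phosphorylation of the initiation factor eIF2 lowers general translation while messengers such as ATF4 are still read.

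Of the 15864 genes, 1855 (11.7%) passed limma's test at an adjusted p of 0.05, 1393 (8.78%) with a higher ratio and 462 (2.91%) with a lower ratio in siOCT4 20%. The median log2 difference over all tested genes was 0.12, so a gene at that value stands with the bulk. With the median of each culture set to the same value the split was 947 higher and 660 lower, 58.9% of the calls being higher, against 75.1% without that step. In each of the 1855 called genes both cultures of one group lay outside the range of the other group, which held for 63.5% of all tested genes. The median fold of the called genes, in either direction, was 2.16.

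The number of calls depends on both siOCT4 20% cultures. Without culture 1 or 2 of siOCT4 20%, the median log2 difference of the core and primed pluripotency list, 1.10, was 1.03 and 1.12. That of the histone list, 0.17, was 0.43 and -0.20. Leaving out a siOCT4 20% culture also takes the spread of that group out of the shared estimate. Without culture 1 of that group limma called 0 genes (3107 at an unadjusted p under 0.05), and without culture 2 it called 0 (3037 unadjusted), against 4857 at an unadjusted p under 0.05 with all cultures. Without control 1% culture 1 or culture 2 it called 230 and 565 genes, without a siOCT4 culture at 1% oxygen 844 and 851, and without a control culture at 20% oxygen 2351 and 2356. A fit of the 4 compared cultures alone called 595 genes, and the same fit over the 16727 genes with a ratio in those 4 called 0 (4938 unadjusted). After a correction for the GC content of the transcripts the count was 3442 of 15396 genes (22.4%), 1654 higher and 1788 lower, and 1675 of the 1819 called genes with a GC value passed again in the same direction. That corrected count was 1287 and 1359 without control 1% culture 1 or 2, and 553 and 375 without siOCT4 20% culture 1 or 2. Without the GC correction, the counts of list members below shrink in the same way, and the calls of all 30 lists depend on both siOCT4 20% cultures. Counts of list members for left-out cultures below are all without that correction.

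The ratios of siOCT4 20% lay closer to 1 than those of control 1%. The standard deviation of the log2 ratio across tested genes was 0.50 and 0.52 in the siOCT4 20% cultures, against 0.76 and 0.78 in the control 1% cultures. A ratio more than 2-fold away from 1 was found for 5.27% and 5.79% of the genes in siOCT4 20%, against 15.0% and 15.0% in control 1%. Of the 1855, 1773 (95.6%) had a siOCT4 20% mean within 2-fold of 1, about the 96.6% of all tested genes. In control 1%, 1096 (59.1%) had such a mean, against 87.7% of all tested genes. Genes called higher had a median ratio of 1.25 in siOCT4 20% and 0.550 in control 1%, and genes called lower had 0.927 in siOCT4 20% and 1.85 in control 1%. In 1456 of the called genes (78.5%) the control 1% mean was the farther from 1, against 60.6% of all tested genes.

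**Figure D1:**
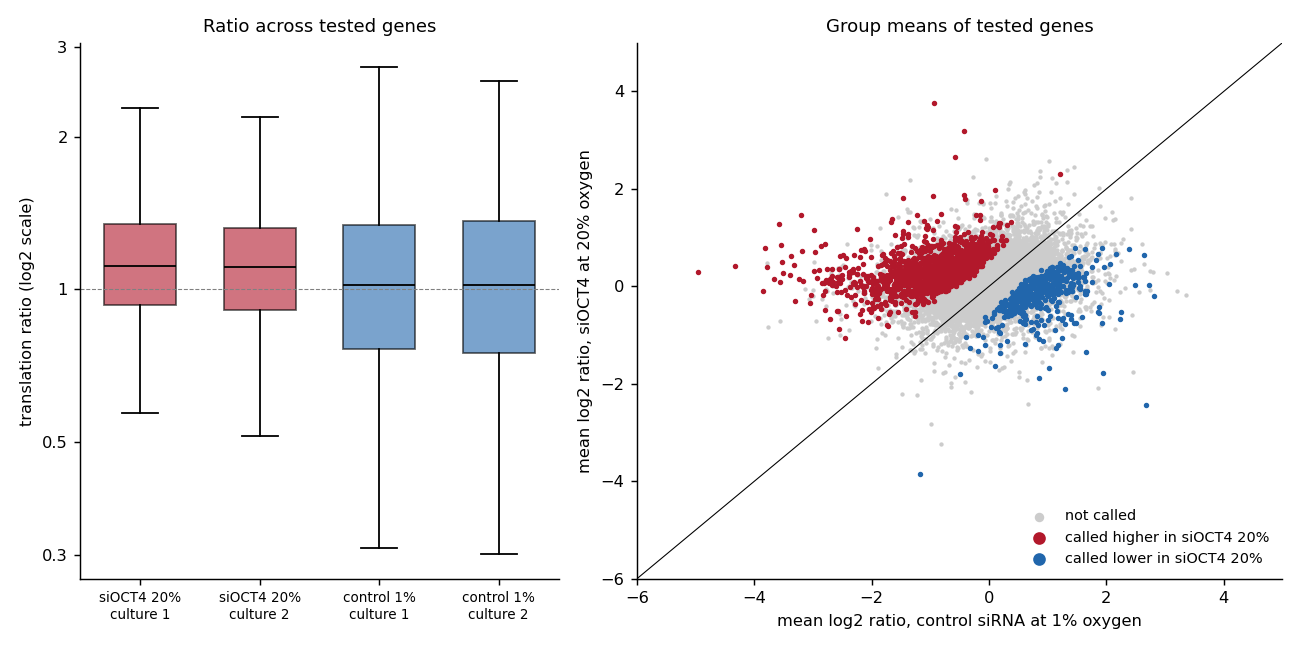
The left panel shows the translation ratio (log2 scale) over the genes with a ratio in all 8 cultures, with the median as a line, the 25th to 75th percentile as a box and whiskers that leave out 2.5% of the genes at either end, for the 2 siOCT4 20% cultures and the 2 control 1% cultures. The right panel plots the mean log2 ratio of each tested gene in siOCT4 20% against that in control 1%, with 1393 genes called higher in red, 462 called lower in blue and the line of equal values; the cloud is wider along the control 1% axis.

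The 2 cultures of a group differed by a median of 0.146 (absolute log2) in siOCT4 20% and 0.304 in control 1%, and the group means differed by a median of 0.409. Base composition moved with the ratio in part. The log2 ratio changed by -0.202 and -0.156 per 10 percentage points of transcript GC content in the siOCT4 20% cultures, against 0.0127 and -0.276 in the control 1% cultures. In the other 4 cultures the slope ran between -1.12 and -1.49. Ratios of single genes in those 4 cultures are given below without a GC correction. For 3441 genes with a GC content up to 42% the median difference was 0.26, and for 3487 genes over 58% it was 0.11. The GC correction also moved the median over all genes, from 0.12 to -0.05. It turned 5 of the 30 list medians below 0, those of the mesoderm, histone, proteasome, interferon and translation factor lists. Of these, the histone and proteasome medians, at -0.02 each, stayed above that of all genes. Median centring alone put the interferon and translation factor medians at -0.05 and -0.10.

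POU5F1, the target of the siRNA, had ratios of 1.41 and 1.42 in siOCT4 20%, against 1.13 and 0.810 in control 1%. The groups did not overlap, but the log2 difference of 0.57 ± 0.22 (SE, n = 2 each) did not pass (adjusted p = 0.155, limma). A ratio does not show how much POU5F1 RNA was left, so the knockdown was not checked by this value. Quantile normalization, which sets all cultures to 1 distribution, gave 1.09 and a call.

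Genes of pluripotency gave the highest median of the 30 gene lists examined. Of 42 measured genes of core and primed pluripotency, 24 rose, 0 fell and 18 did not pass, and the median log2 difference was 1.10, against 0.12 over all genes. The count was 10 and 13 without control 1% culture 1 or 2, and 0 without either siOCT4 20% culture. By culture, the median ratio of the list was 1.16 and 1.21 in siOCT4 20%, against 0.548 and 0.550 in control 1%. The 2 groups left out of the contrast had medians near the siOCT4 20% value, 1.18 at siOCT4 with 1% oxygen and 1.15 at control siRNA with 20% oxygen. Over all tested genes the medians of these 2 groups were 1.33 and 1.16, against 1.11 in siOCT4 20% and 1.02 in control 1%. None of these medians was corrected for GC content.

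APELA, which encodes a peptide hormone secreted by human embryonic stem cells, had the largest change of the list. Its ratios were 1.77 and 1.67 in siOCT4 20%, against 0.0666 and 0.0757 in control 1%, a log2 difference of 4.60 ± 0.25 (adjusted p = 0.00584). The control 1% values were far below those of every other group, at 3.36 and 4.91 with siOCT4 and 1% oxygen and 18.2 and 12.9 with control siRNA and 20% oxygen. APELA has a GC content of 36.4%. All genes up to 42% GC had median ratios of 3.71 and 3.77 with siOCT4 and 1% oxygen. With control siRNA and 20% oxygen they had 4.74 and 3.98. PRDM14, a transcription factor of pluripotency, had 1.08 and 1.19 in siOCT4 20%, against 0.153 and 0.181 in control 1%. GDF3, a TGF-beta family ligand, had 0.734 and 0.903 in siOCT4 20%, against 0.199 and 0.0519 in control 1%. Both rose, by 2.77 ± 0.44 (adjusted p = 0.0205) and 3.0 ± 0.63 (adjusted p = 0.0376).

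Beyond the members with the largest changes, several defining genes are described that were chosen after their values were seen. NANOG, the homeobox partner of OCT4, rose: its ratios were 1.32 and 1.34 in siOCT4 20%, against 0.358 and 0.523 in control 1% (log2 difference 1.62 ± 0.22, adjusted p = 0.0145). L1TD1, a LINE-1-derived protein that binds RNA, had 1.39 and 1.30 in siOCT4 20%, against 0.325 and 0.373 in control 1% (1.94 ± 0.15, adjusted p = 0.00927). TERF1, a subunit of the telomere-capping shelterin complex, had 1.64 and 1.49 in siOCT4 20%, against 0.260 and 0.308 in control 1% (2.47 ± 0.21, adjusted p = 0.00927). In all 3 genes every siOCT4 20% value was well above every control 1% value. Further genes that rose were DNMT3B, a de novo DNA methyltransferase (1.38 ± 0.19), TDGF1, the NODAL co-receptor CRIPTO (1.59 ± 0.16), the deubiquitinase USP44 (1.95 ± 0.25), the surface protein CD24 (2.20 ± 0.17) and the zinc finger factors ZIC2 (1.87 ± 0.16), SALL2 (1.93 ± 0.20) and ZFP42 (0.96 ± 0.14). OTX2, a homeobox factor of the primed state and the anterior brain, rose by 1.32 ± 0.15.

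Other defining genes did not pass. SOX2 had ratios of 1.14 and 1.12 in siOCT4 20%, against 0.939 and 0.690 in control 1% (log2 difference 0.49 ± 0.21, adjusted p = 0.181). SALL4, a zinc finger factor of the same network, had 1.03 and 0.959, against 0.705 and 0.784 (0.42 ± 0.14, adjusted p = 0.107). The let-7 inhibitor LIN28A had 0.940 and 0.995 in siOCT4 20%, against 0.861 and 0.784 in control 1% (0.24 ± 0.14, adjusted p = 0.314). CDH1, the epithelial cadherin, had the opposite sign without passing, with 0.682 and 0.738 in siOCT4 20%, against 0.920 and 1.10 in control 1% (-0.50 ± 0.15, adjusted p = 0.0855). CDH1 passed as lower after the GC correction, at -0.56 (adjusted p = 0.0347).

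Of 11 measured genes of the naive state, which precedes the primed state of these cells, 0 rose and 3 fell, with a median log2 difference of -0.77. The 3 were PRDM1, a repressor in germ and lymphoid cells (0.894 and 1.02 in siOCT4 20%, against 1.91 and 3.24 in control 1%), TFCP2L1 (0.640 and 0.599, against 1.51 and 1.56) and TBX3 (0.866 and 0.949, against 1.70 and 1.40). Their log2 differences were -1.38 ± 0.33, -1.31 ± 0.28 and -0.77 ± 0.15. TFCP2L1 and TBX3 have a recurrent ratio, a value that 3 or more genes of a culture share, as do 6 of the 11. Small read numbers can give such values, but the table holds no read numbers, so their part was not tested. The count was 0 without any 1 of the control 1%, siOCT4 1% or siOCT4 20% cultures.

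Genes of NODAL, BMP and activin signalling rose in part. NODAL keeps primed stem cells from differentiating, the LEFTY proteins are secreted inhibitors of NODAL, and the ID proteins are targets of BMP signalling that block basic helix-loop-helix factors. Of 25 measured genes of this list, 9 rose and 1 fell, with a median log2 difference of 0.59. The count was 5 higher and 0 lower without control 1% culture 1 or culture 2, and 0 without either siOCT4 20% culture.

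Among the ligands and inhibitors, NODAL had ratios of 0.969 and 1.16 in siOCT4 20%, against 0.364 and 0.252 in control 1% (log2 difference 1.81 ± 0.33, adjusted p = 0.0276). LEFTY1 had 1.01 and 1.09 in siOCT4 20%, against 0.216 and 0.0889 in control 1% (2.92 ± 0.51, adjusted p = 0.0245). LEFTY2 had 1.17 and 1.22 in siOCT4 20%, against 0.398 and 0.355 in control 1% (1.67 ± 0.24, adjusted p = 0.0154). These 3 genes belong to the pluripotency list as well, so the lists are not independent. The secreted antagonists FST, which binds activin, and GREM1, which binds BMP, rose by 1.15 ± 0.13 and 1.24 ± 0.22; GREM1 did not pass after the GC correction (adjusted p = 0.0719).

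Of the ID genes, 3 rose. ID3 had 1.25 and 1.37 in siOCT4 20%, against 0.189 and 0.178 in control 1% (2.84 ± 0.18, adjusted p = 0.00677). ID2 had 1.56 and 1.63 in siOCT4 20%, against 0.261 and 0.317 in control 1% (2.47 ± 0.20, adjusted p = 0.00927). ID1 had 1.02 and 1.13 in siOCT4 20%, against 0.263 and 0.239 in control 1% (2.10 ± 0.16, adjusted p = 0.00927). All 3 passed in the 6 leave-out fits that kept both siOCT4 20% cultures, and in all 8 leave-out fits after the GC correction.

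Regulators of the anterior neural plate included the largest increase of all genes that met the naming conditions. SIX3, a homeobox factor of forebrain and eye, had ratios of 1.21 and 1.23 in siOCT4 20%, against 0.0600 and 0.0172 in control 1% (log2 difference 5.25 ± 0.61, adjusted p = 0.0116). Its other cultures lay between 0.789 and 1.47, so the control 1% cultures stood alone. FEZF1, a forebrain zinc finger factor, had 1.34 and 0.989 in siOCT4 20%, against 0.134 and 0.227 in control 1% (2.72 ± 0.32, adjusted p = 0.0116). HESX1, an anterior homeobox repressor, rose by 2.99 ± 0.31 and SIX6, an eye field factor, by 2.09 ± 0.36, both with recurrent ratios. PAX3, a factor of the neural crest, fell by 1.99 on the log2 scale, with 1.60 and 1.51 in siOCT4 20%, against 5.48 and 7.01 in control 1%, also with a recurrent ratio. Over the 23 measured neural genes, 4 rose and 1 fell, and the median of 0.12 equalled that of all genes.

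The signalling ligand FGF8 of the endoderm and primitive streak list had 1.12 and 1.29 in siOCT4 20%, against 0.0646 and 0.120 in control 1% (3.78 ± 0.41, adjusted p = 0.0108). KIT, the receptor of stem cell factor, had 0.990 and 0.753 in siOCT4 20%, against 0.258 and 0.273 in control 1% (1.70 ± 0.18, adjusted p = 0.0108). Of 17 measured genes of that list 3 rose and 1 fell. Of 9 mesoderm genes, with a median of 0.19 that becomes -0.11 after the GC correction, 1 rose, the VEGF receptor KDR (0.88 ± 0.13). Of 17 trophoblast genes 1 rose, HLA-G (0.94 ± 0.20, with a recurrent ratio, adjusted p = 0.0884 after the GC correction). The median of that list was -0.27. After the GC correction 0 of its genes were higher and 4 lower, against 10.7% and 11.6% of all genes. Without that correction 8.78% of all genes rose and 2.91% fell. GATA2, which drives trophoblast fate, had 0.916 and 1.20 in siOCT4 20%, against 5.04 and 2.30 in control 1% and did not pass (adjusted p = 0.0595). Its partner GATA3 had 0.857 and 0.958 in siOCT4 20%, against 3.69 and 1.70 in control 1% (adjusted p = 0.0508), both genes with recurrent ratios. Of 10 fibroblast genes 2 rose and 1 fell, among them TAGLN, a smooth muscle actin-binding protein (-0.94 ± 0.21).

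**Figure D2:**
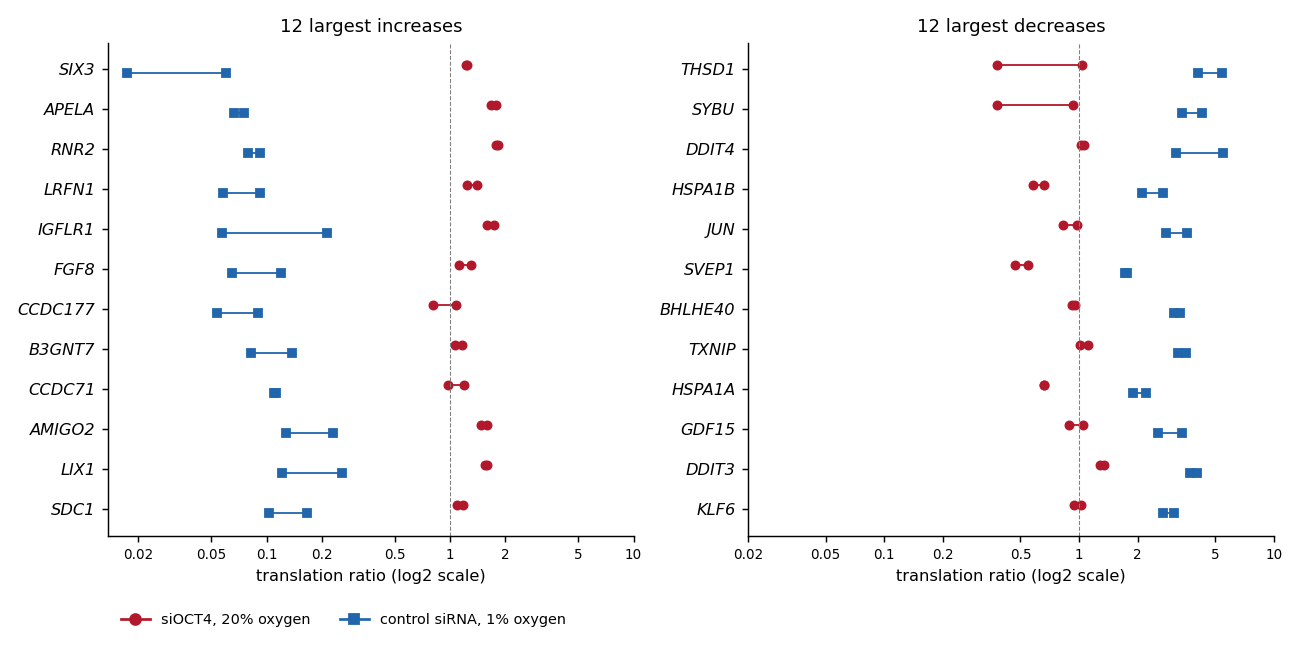
Translation ratio (log2 scale) of the 12 genes with the largest increase (left) and the 12 with the largest decrease (right) among genes that passed, had non-overlapping groups and had no ratio shared by 3 or more genes of a culture; THSD1 and SYBU share 1 siOCT4 20% ratio with each other. Red circles are the 2 siOCT4 20% cultures and blue squares the 2 control 1% cultures of each gene, joined by a line; most siOCT4 20% points lie near 1 on both sides, while the control 1% points lie at most at 0.259 on the left and at least at 1.72 on the right.

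The 12 largest increases held SIX3, APELA, FGF8 and the following genes. SDC1, the heparan sulfate proteoglycan syndecan-1, had 1.09 and 1.18 in siOCT4 20%, against 0.166 and 0.102 in control 1% (3.11 ± 0.37). AMIGO2, an adhesion protein, had 1.59 and 1.48 in siOCT4 20%, against 0.231 and 0.128 in control 1% (3.16 ± 0.35). LRFN1, a synaptic adhesion protein, rose by 4.17 ± 0.48, and B3GNT7, a glycosyltransferase, by 3.39 ± 0.34. IGFLR1, CCDC177, CCDC71 and LIX1 rose by 3.91, 3.75, 3.28 and 3.14 on the log2 scale. The table also lists RNR2, a ribosomal RNA symbol that matched no transcript of the annotation, with 1.78 and 1.82 in siOCT4 20%, against 0.0919 and 0.0792 in control 1% (4.40 ± 0.21).

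Lists of stress responses had medians below 0. Of 41 measured genes of the integrated stress response and its factor ATF4, 0 rose, 15 fell and 26 did not pass, with a median log2 difference of -0.66, against 0.12 over all genes. With the GC correction 29 were lower, in a fit that called 11.6% of all genes lower against 2.91% without the correction. The counts for left-out cultures that follow are without that correction. The count was 3 and 5 without control 1% culture 1 or 2, and 0 without either siOCT4 20% culture. It was 7 without either siOCT4 culture at 1% oxygen. The median ratio of the list was 1.06 and 1.06 in the siOCT4 20% cultures, against 1.72 and 1.67 in the control 1% cultures.

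DDIT3, the stress factor CHOP, had ratios of 1.28 and 1.34 in siOCT4 20%, against 4.04 and 3.73 in control 1% (log2 difference -1.57 ± 0.15, adjusted p = 0.0108). ATF3, a related factor of the same pathway, had 1.02 and 1.13 in siOCT4 20%, against 3.46 and 2.77 in control 1% (-1.52 ± 0.24, adjusted p = 0.0196). TRIB3, a pseudokinase induced by ATF4 and CHOP, had 1.22 and 1.06 in siOCT4 20%, against 3.02 and 2.72 in control 1% (-1.33 ± 0.16, adjusted p = 0.0122). GDF15, a secreted stress cytokine, had 0.884 and 1.04 in siOCT4 20%, against 3.36 and 2.54 in control 1% (-1.60 ± 0.31, adjusted p = 0.0314). In all 4 genes the control 1% values were the highest of the 4 groups and control cells at 20% oxygen the lowest, down to 0.0146 and 0.0210 for GDF15. In control cells at 20% oxygen, all genes over 58% GC had median ratios of 0.407 and 0.631. GDF15 and TRIB3 lie in that range, at 62.9% and 60.9% GC, whereas DDIT3 and ATF3 have 49.7% and 50.8%. The part of base composition in this order was not tested.

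ATF4 itself did not move with its targets. Its ratios were 1.09 and 1.12 in siOCT4 20%, against 0.901 and 0.754 in control 1% (0.42 ± 0.17, adjusted p = 0.149). Among the enzymes and transporters that ATF4 induces, SLC3A2, the heavy chain of amino acid exchangers, fell by 1.23 on the log2 scale, and CTH, of cysteine synthesis, by 1.34, the second with a recurrent ratio. MTHFD2, of mitochondrial folate metabolism, fell by 0.76. ASNS, asparagine synthetase (-0.62 ± 0.18, adjusted p = 0.0756), the glutathione-degrading CHAC1 (-1.07 ± 0.28, adjusted p = 0.0621), PPP1R15A, the phosphatase subunit that reverses eIF2 phosphorylation (-1.67 ± 0.49, adjusted p = 0.082), and the cystine transporter SLC7A11 (-0.58 ± 0.18, adjusted p = 0.0898) had the same sign and did not pass. All 4 passed as lower after the GC correction.

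Of 20 aminoacyl-tRNA synthetases, which charge tRNAs and are in part ATF4 targets, 5 fell and 1 rose. CARS, SARS and AARS fell by 0.93, 0.90 and 0.89 on the log2 scale, and RARS rose by 0.78. Of 22 genes of the unfolded protein response and the chaperones of the endoplasmic reticulum, 3 rose and 4 fell. HERPUD1, of protein degradation at the reticulum, had 1.07 and 1.18 in siOCT4 20%, against 2.39 and 2.62 in control 1% (-1.16 ± 0.13, adjusted p = 0.0109). XBP1, the factor spliced by IRE1, fell by 0.95 and ERN1, which encodes IRE1, by 1.25, the second with a recurrent ratio. SEC61B, of the translocon, and the chaperone CALR rose by 0.83 ± 0.15 and 0.70 ± 0.17.

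Immediate early genes and MAP kinase phosphatases fell in part: of 32 measured, 2 rose and 9 fell, with a median of -0.66. The count was 0 higher and 1 lower without control 1% culture 1, 0 and 3 without culture 2, and 0 without either siOCT4 20% culture. JUN, a subunit of AP-1, had 0.831 and 0.981 in siOCT4 20%, against 3.58 and 2.78 in control 1% (-1.81 ± 0.20, adjusted p = 0.0108). KLF6, a zinc finger factor, had 1.03 and 0.940 in siOCT4 20%, against 2.70 and 3.07 in control 1% (-1.55 ± 0.17, adjusted p = 0.0108). The secreted matricellular proteins CCN1 and CCN2 fell by 1.15 and 0.88, and the phosphatases DUSP8 and DUSP1 by 1.33 and 1.12. FOS, the partner of JUN, did not pass (-0.49 ± 0.19, adjusted p = 0.142), and neither did EGR1 (-1.02 ± 0.31, adjusted p = 0.0864). MYCN, the MYC family member of embryonic cells, was 1 of the 2 that rose, with 0.967 and 1.01 in siOCT4 20%, against 0.195 and 0.193 in control 1% (2.35 ± 0.36, adjusted p = 0.0185), while MYC did not pass (-0.26 ± 0.17, adjusted p = 0.354).

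Of 20 listed heat shock genes 6 fell, HSPA1A and HSPA1B both among them, and 1 rose, the mitochondrial HSPE1. HSPA1A and HSPA1B are near-identical genes of the inducible chaperone HSP70, between which reads can be split in either way, so they count as 1 observation. HSPA1A had 0.658 and 0.659 in siOCT4 20%, against 2.21 and 1.89 in control 1% (-1.63 ± 0.18, adjusted p = 0.0109). BAG3, an HSP70 co-chaperone, had 0.723 and 0.792 in siOCT4 20%, against 2.48 and 1.98 in control 1% (-1.55 ± 0.20, adjusted p = 0.0136). DNAJB1, an HSP40 protein, fell by 0.96. Other chaperones did not follow: HSPA8, the constitutive HSP70 protein, had 0.845 and 0.811 in siOCT4 20%, against 0.573 and 0.640 in control 1% (0.45 ± 0.15, adjusted p = 0.109), and HSPE1, of the mitochondrial chaperonin, rose by 0.92 ± 0.22. The count of lower genes was 0 without control 1% culture 1, 3 without culture 2, 3 without either siOCT4 culture at 1% oxygen, and 0 without either siOCT4 20% culture.

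Of 27 targets of p53, 0 rose and 7 fell, with a median of -0.40. GADD45A, a growth arrest protein, had 1.36 and 1.26 in siOCT4 20%, against 4.11 and 2.79 in control 1% (-1.37 ± 0.25, adjusted p = 0.0259). CDKN1A, the cell cycle inhibitor p21, had 1.10 and 1.14 in siOCT4 20%, against 2.48 and 2.19 in control 1% (-1.06 ± 0.23, adjusted p = 0.0418). PLK2 and BTG2 fell by 1.21 and 1.17. MDM2, the ubiquitin ligase of p53, had -0.73 ± 0.18 and did not pass (adjusted p = 0.0513). Several of these genes respond to other stresses too, and SESN2 is also a target of ATF4. The count was 0 without control 1% culture 1, 3 without culture 2, 4 without either siOCT4 culture at 1% oxygen, and 0 without either siOCT4 20% culture.

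Targets of HIF outside glycolysis moved in both directions. Of 53 measured, 7 rose, 12 fell and 34 did not pass, and the median log2 difference was -0.28. Without control 1% culture 1 the count was 0 higher and 1 lower, without culture 2 it was 4 and 4, without either siOCT4 culture at 1% oxygen 3 and 6, and without either siOCT4 20% culture 0. The list held the 2 HIF targets among the 12 largest decreases, DDIT4 and BHLHE40, whose promoters are shown because HIF binds a short core motif. The windows run from 250 bases before to 50 bases after the start of the gene in RefSeq (GRCh38.p14), 5′ to 3′ on the plus strand, and capitals mark the core ACGTG or its reverse complement CACGT, with overlapping matches written as 1 run.
DDIT4 (chr10:72273674-72273973): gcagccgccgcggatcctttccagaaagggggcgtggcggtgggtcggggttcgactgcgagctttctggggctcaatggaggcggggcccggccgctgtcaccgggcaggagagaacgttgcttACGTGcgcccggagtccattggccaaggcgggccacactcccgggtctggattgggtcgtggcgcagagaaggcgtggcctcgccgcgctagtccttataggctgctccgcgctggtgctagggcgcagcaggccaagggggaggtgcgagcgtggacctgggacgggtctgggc
BHLHE40 (chr3:4979187-4979486): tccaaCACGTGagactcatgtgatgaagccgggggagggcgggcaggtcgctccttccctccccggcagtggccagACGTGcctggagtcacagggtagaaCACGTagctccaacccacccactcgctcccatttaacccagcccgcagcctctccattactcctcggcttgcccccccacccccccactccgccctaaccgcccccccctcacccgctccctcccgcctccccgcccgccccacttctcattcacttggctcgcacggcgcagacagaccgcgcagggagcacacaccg

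The DDIT4 window holds 1 match and the BHLHE40 window 4, of which 2 overlap in 1 palindrome. Of 42 promoters of the HIF list 22 (52.4%) held the core on either strand. The share was 26.9% of the 1075 promoters of genes called higher and 27.4% of the 340 of genes called lower, against 25.8% of the 11983 promoters of tested genes. The core is thus about as frequent in the called genes as in all genes, and a match describes letters, not binding. Other motifs were rarer. Of the 340, 7 (2.06%) held the ATF4 element, against 0.43% of all. The CRE (TGACGTCA) was in 19 (5.59%, against 3.06%) and the AP-1 motif in 17 (5.0%, against 3.06%). The heat shock element was in 5 (1.47%, against 0.33%) and the serum response element in 0. Among genes called higher the shares were, in that order, 0.37%, 2.33%, 2.79%, 0.47% and 0%. These differences were not tested.

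DDIT4, which encodes the mTORC1 inhibitor REDD1 and is a target of HIF and ATF4 alike, had ratios of 1.06 and 1.03 in siOCT4 20%, against 5.47 and 3.13 in control 1% (log2 difference -1.99 ± 0.43, adjusted p = 0.041). Control cells at 20% oxygen had 0.0795 and 0.174, at a GC content of 58.1%. BHLHE40, a circadian and hypoxic repressor, had 0.918 and 0.953 in siOCT4 20%, against 3.06 and 3.29 in control 1% (-1.76 ± 0.13, adjusted p = 0.00927). It passed in the 6 leave-out fits that kept both siOCT4 20% cultures, whereas DDIT4 passed in 2 of 8.

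Further HIF targets fell. VEGFA, the vessel growth factor, had 1.06 and 1.03 in siOCT4 20%, against 2.29 and 1.96 in control 1% (-1.02 ± 0.13, adjusted p = 0.0135). BNIP3, a mitophagy receptor, had 1.18 and 1.07 in siOCT4 20%, against 2.39 and 2.28 in control 1% (-1.05 ± 0.12, adjusted p = 0.0112). HMOX1, heme oxygenase, and the secreted glycoprotein STC2 fell by 1.45 and 1.25. Other targets went the other way: HILPDA, a lipid droplet protein, had 1.65 and 1.69 in siOCT4 20%, against 0.411 and 0.480 in control 1% (1.91 ± 0.21, adjusted p = 0.0109). The creatine transporter SLC6A8 rose by 1.32 ± 0.25, STC1, the paralog of STC2, by 0.94 ± 0.14, GYS1, glycogen synthase, by 0.94 ± 0.20 and CITED2, a HIF antagonist, by 0.90 ± 0.14. GYS1 did not pass after the GC correction (adjusted p = 0.0517). CA9, a classic hypoxia marker, had 0.434 and 1.82 in siOCT4 20%, against 20.0 and 5.26 in control 1%, but with a recurrent ratio and an adjusted p of 0.0706.

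The oxygen sensors and HIF itself did not pass. HIF1A had 1.24 and 1.22 in siOCT4 20%, against 0.591 and 0.812 in control 1% (0.83 ± 0.21, adjusted p = 0.0581). EGLN1, the main HIF prolyl hydroxylase, had 1.18 and 1.24 in siOCT4 20%, against 1.63 and 1.83 in control 1% (-0.51 ± 0.17, adjusted p = 0.103). EGLN3 had 0.53 ± 0.18 (adjusted p = 0.108). With the GC correction HIF1A passed as higher and EGLN1 as lower (adjusted p = 0.0256 and 0.0171). Of 35 iron- and 2-oxoglutarate-dependent dioxygenases, the enzyme family that uses oxygen directly, 1 rose and 6 fell. The collagen prolyl hydroxylases P4HA1 and P4HA2 fell by 1.03 and 1.17 and the histone demethylase KDM6B by 0.90, while TET1, which oxidises 5-methylcytosine, rose by 1.22 ± 0.21.

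Genes of glycolysis fell in part: of 23 measured genes of glycolysis and lactate export 1 rose and 6 fell, with a median of -0.51, and 20 of the 23 had a negative difference. After the GC correction 15 were lower, against 11.6% of all genes. PGK1, phosphoglycerate kinase, had 0.821 and 0.838 in siOCT4 20%, against 2.21 and 1.98 in control 1% (-1.33 ± 0.15, adjusted p = 0.0108). ALDOC, an aldolase, had 0.876 and 1.01 in siOCT4 20%, against 2.26 and 2.10 in control 1% (-1.21 ± 0.23, adjusted p = 0.0296). LDHA, lactate dehydrogenase, had 1.12 and 1.13 in siOCT4 20%, against 1.91 and 1.97 in control 1% (-0.78 ± 0.14, adjusted p = 0.0255). The glucose transporter SLC2A3 and the enolases ENO1 and ENO2 fell by 0.79, 0.70 and 0.78. The other main glucose transporter SLC2A1 did not pass (-0.31 ± 0.19, adjusted p = 0.321). The 1 gene that rose was SLC16A1, a transporter of lactate (0.83 ± 0.18). The count of lower genes was 0 and 1 without control 1% culture 1 or 2, 1 without either siOCT4 culture at 1% oxygen, and 0 without either siOCT4 20% culture.

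**Figure D3:**
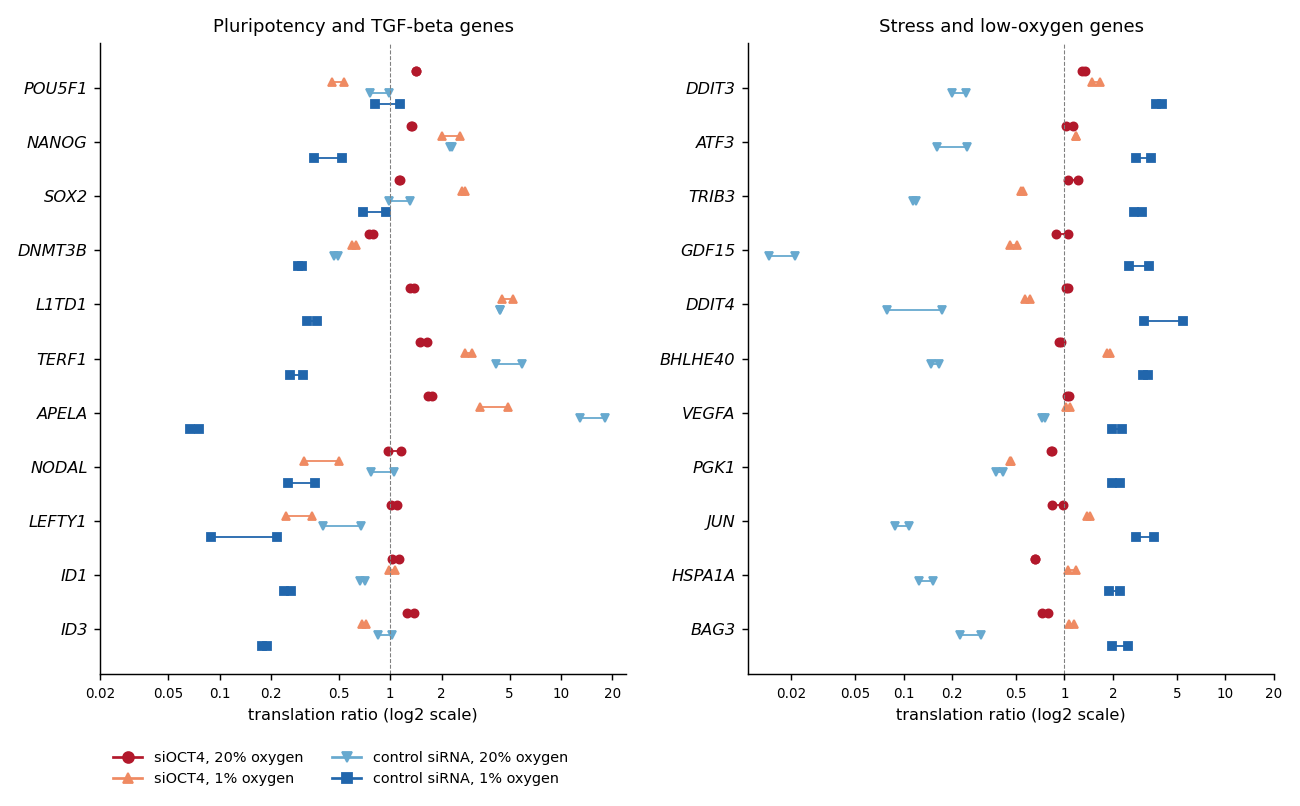
Translation ratio (log2 scale) of 11 pluripotency and TGF-beta genes (left) and 11 stress and low-oxygen genes (right), chosen after their values were seen. The ratios are not corrected for GC content. Red circles are siOCT4 20%, orange triangles siOCT4 cells at 1% oxygen, light blue triangles control cells at 20% oxygen and dark blue squares control 1%, with the 2 cultures of a group joined. On the left the control 1% points are the lowest of each gene that rose except NODAL, and on the right they are the highest of each gene, with control cells at 20% oxygen at the low end.

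Of 45 collagens, laminins and matrix glycoproteins with their modifying enzymes, 1 rose and 10 fell, with a median of -0.52, and 40 had a negative difference. After the GC correction 26 were lower, against 11.6% of all genes in that fit. THBS1, thrombospondin-1, had 0.755 and 0.715 in siOCT4 20%, against 1.85 and 2.03 in control 1% (-1.40 ± 0.13, adjusted p = 0.0107). FN1, fibronectin, had 0.295 and 0.276 in siOCT4 20%, against 0.640 and 0.788 in control 1% (-1.31 ± 0.21, adjusted p = 0.0207). FN1 is thereby unlike most genes that fell, with the siOCT4 20% values the farther from 1. COL2A1 had 0.532 and 0.50 in siOCT4 20%, against 1.17 and 1.10 in control 1% (-1.14 ± 0.24), and COL12A1 and the basement membrane genes COL4A1 and NID1 fell by 0.99, 0.93 and 0.83, COL4A1 with a recurrent ratio. VCAN, a large proteoglycan, was the 1 that rose, with 0.831 and 0.733 in siOCT4 20%, against 0.245 and 0.318 in control 1% (1.48 ± 0.18, adjusted p = 0.0124). COL1A1 (-0.41 ± 0.25, adjusted p = 0.313) and the laminin LAMA1 (-0.16 ± 0.17, adjusted p = 0.56) did not pass. The count of lower genes was 1 without any 1 of the control 1% or siOCT4 1% cultures, and 0 without either siOCT4 20% culture.

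Of 28 genes of cholesterol and fatty acid synthesis 0 rose and 3 fell, with a median of -0.41. Those that fell included the sterol monooxygenase MSMO1 (-0.82 ± 0.19) and the desaturase SCD (-0.78 ± 0.12). After the GC correction, which called 11.6% of all genes lower, 15 were lower. Without that correction, leaving out control 1% culture 1 or 2 gave list medians of -0.40 and -0.46. Leaving out siOCT4 20% culture 1 or 2 gave -0.43 and -0.41. The autophagy and mTORC1 list of 35 genes gave 2 higher and 5 lower, against 8.78% and 2.91% of all genes. WIPI1, of autophagosome formation, fell by 1.15 and SQSTM1, the cargo receptor p62, by 1.12, the second with a recurrent ratio, and RRAGD, a Rag GTPase that recruits mTORC1, rose by 0.92 ± 0.13. TXNIP, an inhibitor of thioredoxin that glucose induces, had 1.01 and 1.11 in siOCT4 20%, against 3.20 and 3.52 in control 1% (-1.66 ± 0.13, adjusted p = 0.00927). THSD1 and SYBU had the largest decreases of the genes that met the naming conditions, -2.91 ± 0.66 and -2.68 ± 0.42, with siOCT4 20% cultures that differed from each other, 1.03 and 0.378 for THSD1 and 0.926 and 0.378 for SYBU. The 0.378 is the same value in both genes within the tolerance used for recurrent ratios, which need 3 genes, so both genes passed that condition by 1 gene. SVEP1, an extracellular matrix protein, fell by 1.79.

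Of 79 cytosolic ribosomal proteins 1 rose and 0 fell, with a median of -0.10, so that 78 did not pass. Quantile normalization gave 1 higher and 27 lower with a median of -0.61, and the GC correction 1 higher and 4 lower. RPS26, which has near-identical pseudogenes that could share its reads, was the exception, with 1.49 and 1.5 in siOCT4 20%, against 0.558 and 0.606 in control 1% (1.36 ± 0.13, adjusted p = 0.0108). Of 49 initiation and elongation factors 4 rose and 1 fell, close to the 8.78% and 2.91% of all genes, with a median of 0.02, which becomes -0.10 after median centring and -0.16 after the GC correction. They were 10 higher and 9 lower with quantile normalization and 3 higher and 6 lower with the GC correction. EIF5B, which joins the ribosomal subunits, had 1.20 and 1.08 in siOCT4 20%, against 0.432 and 0.521 in control 1% (1.26 ± 0.16, adjusted p = 0.0124). EIF4G2, a scaffold for initiation without the cap-binding factor eIF4E, and EIF4E2, the cap-binding protein used in hypoxia, rose by 0.81 ± 0.14 and 0.80 ± 0.15, and EIF1, of start codon choice, fell by 0.67. The elongation factors EEF1A1 (-0.33 ± 0.12, adjusted p = 0.14) and EEF2 (-0.35 ± 0.21, adjusted p = 0.324) did not pass.

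Genes of mitochondria were higher in part. Of 78 mitochondrial ribosomal proteins 11 rose and 0 fell, with a median of 0.39, and 68 had a positive difference. MRPS17 had 1.48 and 1.47 in siOCT4 20%, against 0.495 and 0.511 in control 1% (1.55 ± 0.23, adjusted p = 0.0165), and MRPL17 had 1.27 and 1.29, against 0.461 and 0.461 (1.47 ± 0.12, adjusted p = 0.00927). Of 76 nuclear-encoded subunits of the respiratory chain 6 rose and 0 fell, with a median of 0.27. ATP5MC1, of the ATP synthase ring, had 1.48 and 1.59 in siOCT4 20%, against 0.534 and 0.440 in control 1% (1.66 ± 0.19, adjusted p = 0.0113), and NDUFA4, a cytochrome oxidase subunit, rose by 0.99 ± 0.18. After the GC correction 14 of the 78 were higher and 3 lower, with a median of 0.24. Of the 76, 3 were then higher and 1 lower, with a median of 0.11. That fit called 10.7% of all genes higher and 11.6% lower. Without the GC correction, the 6 of 76 is a smaller share than the 8.78% of all genes. Without control 1% culture 1 or 2 the counts were 1 and 2 for the ribosomal proteins and 1 and 1 for the respiratory chain, without either siOCT4 culture at 1% oxygen 4 and 5 and 1 and 1, and without either siOCT4 20% culture 0 for both.

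Of 40 proteasome subunits 3 rose and 0 fell (PSMA4, PSMD6 and PSMA5, by 0.89, 0.83 and 0.66), with a median of 0.21 that becomes -0.02 after the GC correction. The 3 of 40 is a smaller share than the 8.78% of all genes, and PSMA5 did not pass after the GC correction (adjusted p = 0.206). Replication and cell cycle genes rose in part. Of 41 replication genes 7 rose and 0 fell, with a median of 0.29, which quantile normalization turned to -0.04. After the GC correction 7 of them were higher and 2 lower, with a median of 0.11. RRM2, the ribonucleotide reductase subunit that limits nucleotide supply, had 1.08 and 1.06 in siOCT4 20%, against 0.143 and 0.158 in control 1% (2.83 ± 0.14, adjusted p = 0.00584). PCNA, the replication clamp, had 1.24 and 1.31 in siOCT4 20%, against 0.532 and 0.571 in control 1% (1.21 ± 0.13, adjusted p = 0.0109). GINS2, of the replicative helicase, TYMS, thymidylate synthase, and TK1, thymidine kinase, rose by 1.27 ± 0.18, 0.83 ± 0.15 and 0.87 ± 0.19. Without control 1% culture 1 the count was 1, without culture 2 it was 4, and without either siOCT4 20% culture 0.

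Of 38 mitosis and cell cycle genes, 7 were higher and 5 lower after the GC correction, with a median of 0.12. Without that correction 7 rose and 1 fell, with a median of 0.32. CCND1, cyclin D1, had 0.963 and 0.925 in siOCT4 20%, against 0.248 and 0.254 in control 1% (1.91 ± 0.15, adjusted p = 0.00927). CCND2, its paralog, was the 1 that fell, with 1.01 and 0.985 in siOCT4 20%, against 1.5 and 1.60 in control 1% (-0.64 ± 0.13, adjusted p = 0.033). CCNE1, CCNB1 and the kinetochore genes CENPF, CENPE and BUB1B rose by 1.17 ± 0.16, 0.93 ± 0.14, 1.25 ± 0.18, 1.04 ± 0.23 and 0.92 ± 0.15. CDK4 rose by 0.69 ± 0.15 and CDK1 did not pass (0.47 ± 0.17, adjusted p = 0.135). Without control 1% culture 1 the count of higher genes was 1, without culture 2 it was 3, and without either siOCT4 20% culture 0.

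Of 27 long non-coding RNAs 0 rose and 4 fell, with a median of -0.29. NEAT1, the scaffold of nuclear paraspeckles, had 1.80 and 1.62 in siOCT4 20%, against 5.79 and 4.69 in control 1% (-1.61 ± 0.27, adjusted p = 0.022, with a recurrent ratio), and the small nucleolar RNA hosts SNHG17 and SNHG1 fell by 0.98 and 0.80. MALAT1, a nuclear speckle RNA, had 1.52 and 1.60 in siOCT4 20%, against 3.90 and 5.02 in control 1% and did not pass (adjusted p = 0.198), also with a recurrent ratio. NEAT1 and MALAT1 are nuclear and not translated, so their ratios do not measure translation. Of 19 histone genes 2 rose and 2 fell: the variants H3F3A and H2AFZ rose by 0.80 ± 0.13 and 0.68 ± 0.12, and H1F0 and HIST1H2BD fell by 0.94 and 1.72, the second with a recurrent ratio. The median of the histone list, 0.17, becomes -0.02 after the GC correction. Of 23 interferon response genes 1 rose, DDX58, the RNA sensor RIG-I (1.12 ± 0.25), with a list median of 0.07 that becomes -0.10 after the GC correction. The 1 of 23 is a smaller share than the 8.78% of all genes.

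**Figure D4:**
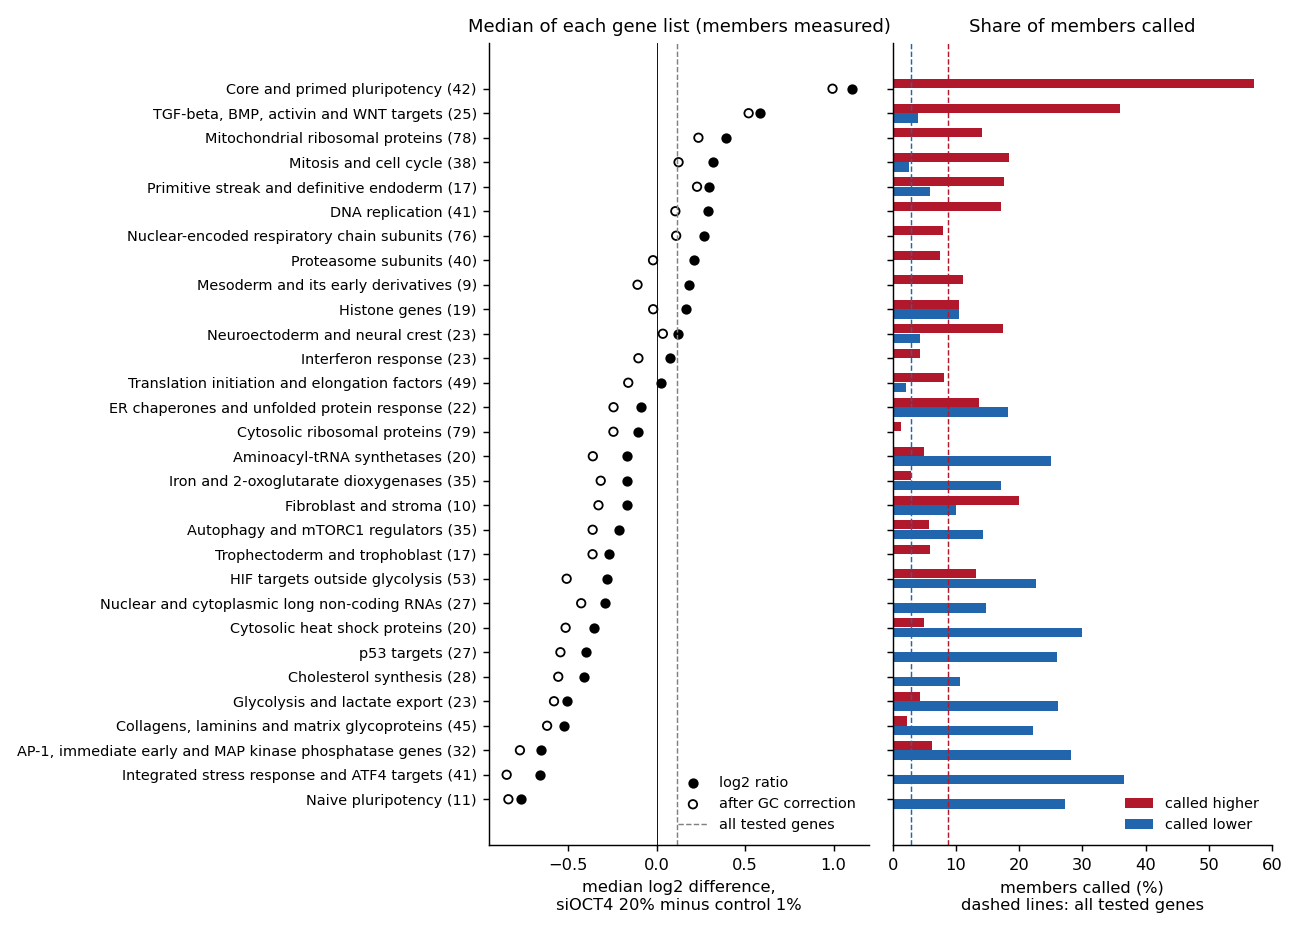
Left, the median log2 difference (siOCT4 20% minus control 1%) of the 30 gene lists, with the number of members measured in brackets. Filled circles are for the log2 ratio and open circles for the values after the GC correction. The dashed line is the median of all tested genes for the log2 ratio, 0.12, which was -0.05 after the GC correction. Right, the share of members called higher (red) and lower (blue), with dashed lines at 8.78% and 2.91% for all tested genes; core pluripotency stands highest and the integrated stress response has the highest share called lower.

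By transcript class, 1295 of 14280 protein-coding genes were higher and 422 lower, against 20 and 11 of 277 long intergenic RNAs and 20 and 11 of 363 antisense RNAs. Recurrent ratios were found in 222 of the long intergenic and 315 of the antisense RNAs, against 5051 of the protein-coding genes. Whether the counting used strand is not given in the sources used here, so reads of antisense RNAs and their partner genes may be mixed. The median transcript GC content was 47.2% for genes called higher and 50.2% for genes called lower, against 49.3% for all tested genes. Median transcript lengths were 3385 bases for genes called higher and 3499 for genes called lower, against 3333 for all.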

How the data were processed

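The deposited table gives, per the file headers, 1 translation ratio per culture for 28252 genes; the authors made it from paired RNC and RNA libraries of 8 cultures (16 libraries). The build hg19 and edgeR are named in the submitters' processing notes; what edgeR was used for, the aligner and the annotation were not given in the sources used here. Columns marked "sO" were read as siOCT4. The depth is unknown, so no counting intervals are given, and all 8 value columns were assigned (0 left out).

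The log2 ratio, with no pseudocount, of the 15864 genes with a ratio in all 8 cultures went into limma 3.58.1 (R 4.3.3, statmod 1.5.0) with trend and robust settings, 4 groups of 2 and 4 residual degrees of freedom. The threshold was 0.05 for two-sided p-values adjusted over all tested genes by Benjamini-Hochberg; errors are SE. On simulated data the fit called 16 of 100 genes with a log2 change of 1, 59 of 100 with a change of 2 and 6 of 15664 unchanged genes. The simulation drew normal noise with the same spread in all 4 groups of a gene and no difference in GC trend between cultures. The real cultures differ in both, so these numbers need not hold for them. The rule for naming genes took POU5F1, then in either direction the 12 largest log2 differences among genes that passed, had non-overlapping groups and no recurrent ratio (shared by 3 or more genes of a culture within 2e-06, as small read numbers can give), and up to 4 such members per list, or 2 members where none qualified. It named 105 genes; other genes in the text were chosen after their values were seen. The members and the 30 gene lists were chosen with earlier results of these data known. GC content came from GENCODE 29 transcripts matched by symbol; the GC correction took residuals from a spline with 6 degrees of freedom per culture. Promoters came from RefSeq (GRCh38.p14), matched by symbol for 11983 tested genes, and 6 short motifs were searched on both strands. The HIF core is also reported for the HIF list, the others for the called genes only. Alternatives were other normalizations, pseudocounts, gene filters, the replicate block and leaving out each culture, where the lone culture was assumed to vary like the other groups; leaving out cultures after the GC correction was added after the data were seen. Python 3.11.15, numpy 2.4.6, pandas 2.3.3 and matplotlib 3.10.9 were used for summaries and figures.

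Results for a few items are not reported here.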

Additional observations from a re-analysis of the deposited data

How the results depend on the processing

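The number of genes past the threshold, 1855 (1393 higher, 462 lower), stayed within 1.5 times under median centring, either pseudocount and limma without trend and robust settings. Without genes with a recurrent ratio, 2281 of only 8087 genes passed (1581 higher, 700 lower), against 1855 of 15864. Of the 1855, 1078 were among these 8087 genes, and all 1078 passed again in the same direction. The number was 5460 (2753 and 2707) with quantile normalization and 3442 with the GC correction (1788 lower). With a correction for GC content and length it was 3597 (1865 lower). A fit of the 4 compared cultures alone gave 595 (521 and 74), and 0 (0 and 0) over the genes with a ratio in those 4. The fit with the replicate number as a replicate block gave 684 (551 and 133), and with the GC correction 1138 lower. Deviations of same-numbered cultures from their group means correlated between -0.233 and 0.0225, and between -0.083 and 0.0028 after the GC correction. Such correlations cannot tell whether same-numbered cultures were paired by design. Without 1 culture the count ran from 0 to 2356, the higher genes from 0 to 1690 and the lower from 0 to 667. After the GC correction these ranges were 375 to 3862, 235 to 1807 and 140 to 2059. No called gene passed in the opposite direction under any of these settings (0 in each). POU5F1 passed with quantile normalization at a log2 difference of 1.09 and under none of the other alternatives run. LIN28A, which did not pass, was at -0.0174 with quantile normalization. The cause of these shifts was not tested. Depth could not be assessed, since the table holds ratios only.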

Other observations

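Genes outside the tests also differed in whether a ratio was given. A ratio in both siOCT4 20% cultures and in neither control 1% culture was found for 392 genes, 249 of them protein-coding, and the reverse for 400 genes, 243 of them protein-coding. The table gives no reason why a ratio is missing, so these genes carry no direction.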
